A study of Mus musculus with 12 samples.

Results

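Annexins and S100 proteins are described here through 10 genes, Anxa1, Anxa2, Anxa3, Anxa5, Anxa13, S100a6, S100a10, S100a11, S100a14 and S100a16. They are the rows with these symbols among the 53599 genes of the deposited count table, and all 10 passed the filter on low counts. The RNA came from mouse liver cells sorted at stages of the conversion of hepatocytes into bile duct cells, with 3 replicates in each of 4 groups. All mice are labelled WT, and all received AAV8-TBG-Cre, a viral vector whose TBG promoter drives Cre recombinase in hepatocytes, so that these cells and their descendants carry EGFP. From 1 week later all were fed 0.1% DDC, an agent that injures bile ducts, for 8 weeks. The early group was EGFP+ Cd24- Epcam-, the intermediate group EGFP+ Cd24+ Epcam-, and the full group EGFP+ Cd24+ Epcam+. Biliary epithelial cells (BEC) were EGFP- Epcam+ cells from livers given the same vector and diet, so no group comes from an uninjured liver. Age, the number of mice behind a library and whether mice were pooled are not given in the sources used here, so p-values measure the spread between these libraries, which may be technical. The label BEC rests on the absence of EGFP and the presence of Epcam, and a hepatocyte that escaped the vector would also lack EGFP.

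Annexins are proteins that bind acidic phospholipids when calcium is present, and so attach to membranes that are stretched, torn or fusing with vesicles. Most S100 proteins are small calcium sensors that work as dimers and dock onto other proteins. The families meet in fixed pairs: an S100a10 dimer joins a pair of Anxa2 molecules into a heterotetramer that also binds plasminogen, and S100a11 binds Anxa1 and Anxa2. Both families are widely used by epithelia, where they serve membrane traffic, repair and the cytoskeleton under the membrane.

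Total counts ran from 15112893 to 19731887 per library, and the 10 genes together held between 0.0976% and 0.368% of them. Early libraries were dominated by few genes, with 31.2% to 35.9% of counts in the 50 most abundant genes against 14.9% to 21.6% elsewhere. Levels are therefore given as CPM, the counts relative to library size, scaled by TMM, which balances the bulk of genes between libraries, with 3 counts (0.128 to 0.273 CPM) taken as the floor. With total counts alone, the median gene of the 16210 tested moved up by 0.72 from early to intermediate and by 0.21 from intermediate to full on the log2 scale, against 0.06 and 0.01 with TMM. The summed level of 13 hepatocyte markers was 110143 to 115582 CPM in early, 16354 to 21338 in intermediate, 3492 to 4584 in full and 2177 to 2891 CPM in BEC. For 10 biliary markers the sums were 967 to 1929, 9248 to 12168, 11663 to 14943 and 14294 to 17780 CPM. Epcam, a sort marker among them, had 0.324 to 0.818 CPM in early and 12.4 to 26.7 CPM in intermediate, both sorted as Epcam-, against 207 to 283 CPM in full and 844 to 907 CPM in BEC.

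From early to intermediate, where the cells gain Cd24, 7 of the 10 genes passed the test, 6 higher and 1 lower, beside 54.4% of all genes tested (28.7% higher, 25.7% lower). Anxa13, Anxa3, S100a6, Anxa5, S100a11 and Anxa2 rose, and S100a10 fell with TMM (0.15 and not called with total counts). From intermediate to full, where the cells gain Epcam, 6 passed, 5 higher and 1 lower, beside 40.7% of all genes (20.8% higher, 19.8% lower). S100a14, Anxa1, Anxa13, Anxa3 and S100a16 rose, and S100a10 fell again with TMM, a call lost with total counts. Between full and BEC, which differ in EGFP and in the lineage it marks, 5 were higher in BEC and 0 lower, beside 21.3% of all genes (10.7% higher, 10.6% lower). The 5 were Anxa1, S100a14, S100a6, S100a11 and S100a16. With the replicate number as a block, 6 were called there, Anxa5 being lower in BEC, and 8 at the second step, Anxa2 and S100a6 being lower in full. The shares of all genes above belong to the fit without that block. The median log2 fold change of the 10 was 0.67, 0.17 and 0.41 at these steps, beside 0.06, 0.01 and 0.00 over all genes. With total counts the split of calls was 7 higher and 0 lower at the first step, and 5 and 0 at the second. On that scale 69.4% and 44.5% of all genes were called at the first and the second step. BEC against early had all 10 called, 9 higher and S100a10 lower (not called with total counts), beside 73.1% of all genes (40.0% higher, 33.0% lower). Full against early had all 10 as well, in the same split, beside 71.2% (39.1% higher, 32.1% lower), and there too S100a10 was not called with total counts (-0.01, adjusted p = 0.926). BEC against intermediate had 9 called, 7 higher and 2 lower, beside 52.4% (26.3% higher, 26.2% lower). With total counts it had 7 higher and 0 lower, and the share of all genes on that scale is not given here. Of those 9, Anxa5 (lower, adjusted p = 0.0431) was lost without intermediate replicate 2 or 3, full replicate 2 or 3, or any 1 BEC library (adjusted p 0.0516 to 0.145). That call was also lost with total counts (0.668), median-of-ratios size factors (0.100), no filter on low counts (0.0738) or a mean of at least 50 counts (0.0648). S100a6 (higher, adjusted p = 0.0388) was lost without intermediate replicate 2 or 3, full replicate 2, or BEC replicate 2 or 3 (0.0526 to 0.172). A test over all 4 groups at once called all 10, beside 75.6% of all genes. A call is an adjusted p under 0.05 in edgeR's quasi-likelihood test, with Benjamini-Hochberg adjustment over the genes tested. In bulk RNA, more cells expressing a gene and more RNA per cell cannot be told apart.

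**Figure D1:**
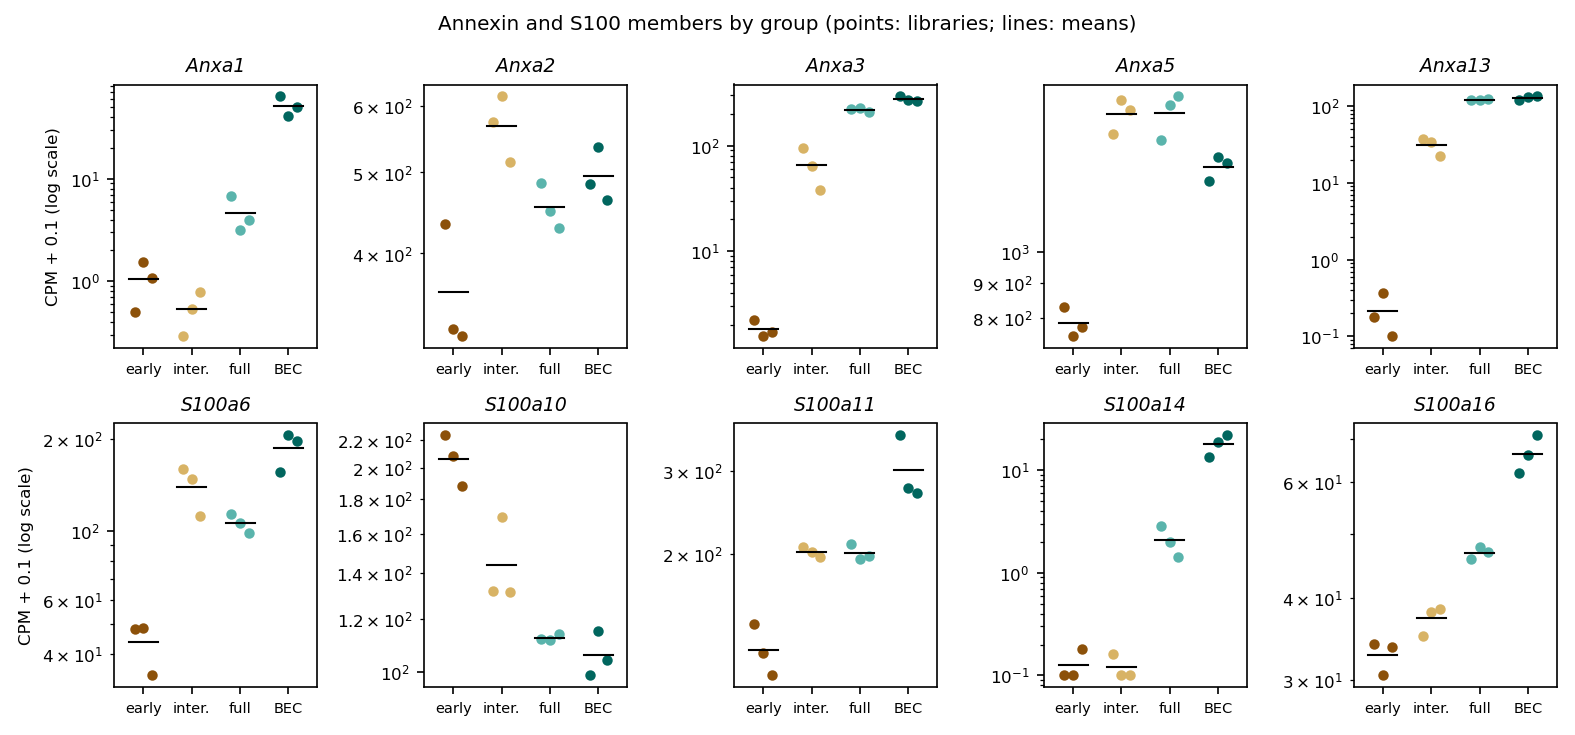
Level of each of the 10 genes by group, in CPM + 0.1 on a log axis whose range differs between panels; points are libraries and lines are group means (n = 3). Anxa3 and Anxa13 lie near the floor or low in early and high from intermediate on, Anxa1 and S100a14 stay low until full, and S100a10 is highest in early on this TMM scale.

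**Figure D2:**
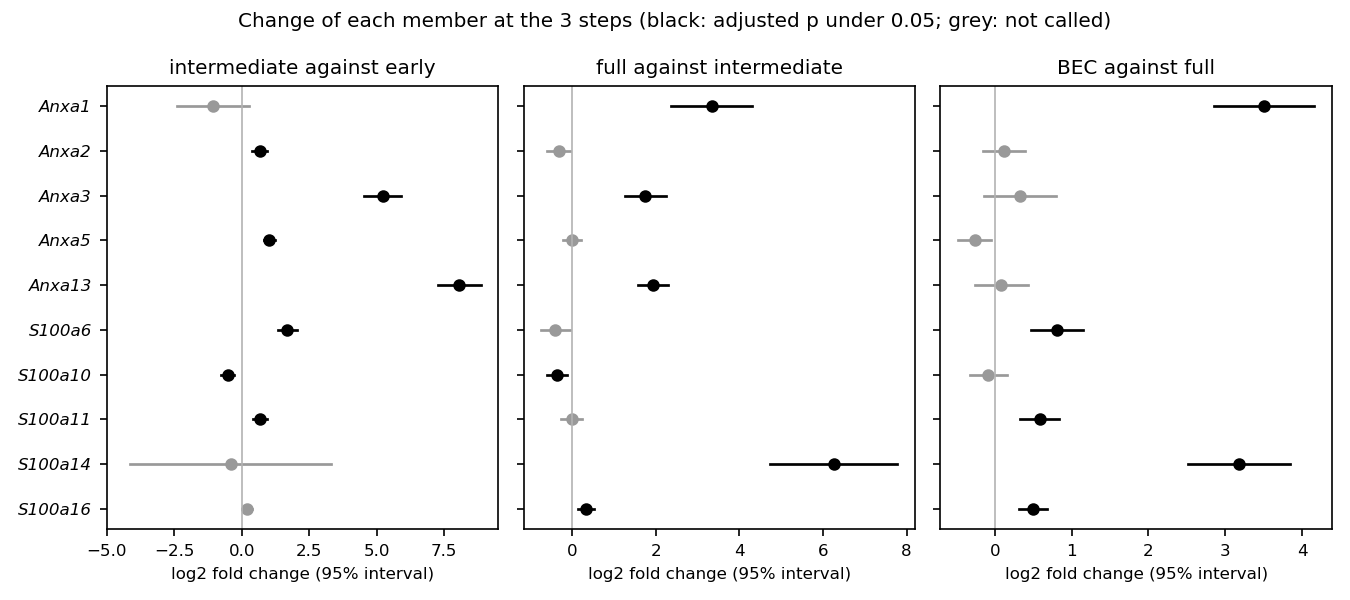
Log2 fold change of each gene at the 3 steps with its 95% interval, on axes of different range; black marks an adjusted p under 0.05 and grey the rest. The black points number 7, 6 and 5 from left to right.

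Anxa13, an annexin of intestinal and kidney epithelium, went from next to nothing to a high level. Its early libraries held 0.0791, 0.273 and 0 CPM, 4 counts in all. Intermediate libraries had 37.7, 34.6 and 22.5 CPM, full libraries 119, 119 and 125 CPM, and BEC libraries 120, 131 and 134 CPM. Early, intermediate and full did not overlap with each other, while full and BEC lay together. Set against the 4 early counts, the intermediate level was 283-fold higher, with a 95% counting interval from 110 to 1039 that covers counting error only. The further rise to full was 1.94 on the log2 scale (SE 0.17, adjusted p = 1.06e-06, edgeR), 3.84-fold. BEC and full differed by 0.08 (95% interval -0.26 to 0.43, adjusted p = 0.788, edgeR).

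Anxa3, a marker of biliary and progenitor-like liver cells, followed the same course from a measurable base. Early libraries had 2.14, 1.46 and 1.62 CPM, and intermediate libraries 94.0, 64.2 and 37.8 CPM. Full libraries had 221, 229 and 209 CPM, and BEC libraries 292, 270 and 265 CPM. No group overlapped with another, and the intermediate libraries were the most spread, replicate 1 holding more than replicate 3. The log2 fold change was 5.22 (SE 0.32, adjusted p = 1.89e-08, edgeR) at the first step and 1.75 (SE 0.23, adjusted p = 3.62e-05) at the second. BEC stood 0.33 above full, which did not pass (adjusted p = 0.364, edgeR), although a fit of the 6 libraries of these groups alone gave an adjusted p of 0.0154. Gm42603 overlaps an Anxa3 exon and held 98 counts, against 36179 for Anxa3.

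Anxa5, the phosphatidylserine binder known as a reagent for dying cells, was the most abundant of the 10 and doubled at the first step only. It stood at 832, 751 and 776 CPM in early and at 1497, 1679 and 1622 CPM in intermediate. In full it had 1468, 1652 and 1700 CPM, and in BEC 1274, 1385 and 1356 CPM. The early libraries lay below all others, intermediate and full overlapped, and all 3 BEC libraries lay below them. The first step was 1.02 (SE 0.10, adjusted p = 1.43e-06, edgeR), 2.03-fold. The second was 0.01 (95% interval -0.21 to 0.22, adjusted p = 0.967). BEC was 0.26 lower than full in log2 terms (log2 fold change -0.26, adjusted p = 0.0801, edgeR), and the adjusted p was 0.0469 with the replicate number as a block, 0.0173 with DESeq2 and 0.0497 in a fit of the 6 libraries.

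Anxa2, the partner of S100a10 at the plasma membrane and on endosomes, rose at the first step, and with TMM its highest mean was in intermediate. With total counts intermediate and BEC were level, at 595 CPM each. Early libraries had 434, 325 and 318 CPM, intermediate 574, 616 and 515, full 486, 450 and 429, and BEC 484, 536 and 463 CPM. Early replicate 1 overlapped with full, and full with BEC, while all intermediate libraries lay above all full ones. The first step was 0.66 (SE 0.13, adjusted p = 0.000541, edgeR), 1.58-fold. The second was -0.32 (SE 0.13, adjusted p = 0.0561), and 0.0199 with the replicate number as a block. That call also appeared without early replicate 1 (adjusted p = 0.0163), early replicate 2 (0.0491), early replicate 3 (0.0484) or intermediate replicate 3 (0.0444), and in a fit of the 6 libraries (0.0201). Full stood 0.34 above early (adjusted p = 0.0264, edgeR), which ended without early replicate 2 (0.113), early replicate 3 (0.103) or full replicate 1 (0.0840), and in a fit of the 6 libraries (0.0689). BEC against full was 0.12 (95% interval -0.15 to 0.39, adjusted p = 0.594). Anxa2 overlaps the antisense gene Gm16144, and since strandedness is not given in the sources used here, reads from the overlap cannot be told apart.

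Anxa1, known for dampening inflammation and for binding formyl peptide receptors, came up late and was far higher in BEC. Early libraries had 0.395, 1.46 and 0.971 CPM, and intermediate libraries 0.189, 0.438 and 0.679 CPM. Full libraries had 6.64, 3.03 and 3.89 CPM, and BEC libraries 63.6, 41.3 and 50.03 CPM. Early and intermediate overlapped, full lay above both, and BEC above full in every library. The first step was -1.05 (95% interval -2.38 to 0.29, adjusted p = 0.171, edgeR), which DESeq2 called at an adjusted p of 0.0437. The second was 3.34 (SE 0.45, adjusted p = 5.02e-05, edgeR), 10.1-fold, and the third 3.51 (SE 0.30, adjusted p = 2.21e-06), 11.4-fold. The first step minus the second was -4.38 (SE 0.97, adjusted p = 0.00741, edgeR), and Anxa1 was the only one of the 10 whose second step was called larger.

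Of 5 mesothelial markers, Msln and Gpm6a were higher in full than in intermediate and higher again in BEC, as Anxa1 was. The sum of the 5 was 1.82 to 4.45 CPM in early, 2.26 to 3.23 in intermediate, 29.6 to 45.1 in full and 225 to 249 CPM in BEC. Msln alone was 198 of those BEC CPM on average. Of the 4 tested, 3 were higher in full than in intermediate and 2 higher in BEC than in full, namely Msln (3.21) and Gpm6a (1.78). Of all genes 20.8% and 10.7% were higher in these comparisons. The third marker higher in full than in intermediate was Wt1, with 0.893, 1.16 and 2.01 CPM in full and 0.626, 0.419 and 0.366 CPM in BEC. Upk3b, which did not pass at either step, held 0.669 to 0.893 CPM in full and 0.385 to 0.978 CPM in BEC, and Upk1b, not tested, at most 0.298 and 0.137 CPM. The sum of 13 macrophage markers was 26.3 to 30.3 CPM in early and 134 to 169 CPM in BEC, Csf1r being 127 of those BEC CPM on average. Of the 11 tested, 2 (18.2%) were higher in BEC than in full, beside 21.3% of all genes called (10.7% higher). Of the 9 neutrophil markers 7 had 0 counts in full and in BEC, and 1, Ltf, had enough counts to be tested. Ltf was higher in full than in intermediate (0.681, 0.669 and 0.175 CPM in full) and higher again in BEC (2.17, 6.38 and 2.56 CPM). The part of other cell types in the Anxa1 and S100a14 levels was not tested.

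S100a14, an epithelial S100 protein linked to cell motility, had the same late course. It had 1 count in all early libraries together and 1 in all intermediate ones, so both groups lie under the floor and no fold is given between them. Full libraries had 2.77, 1.87 and 1.31 CPM (137 counts), and BEC libraries 13.4, 18.9 and 21.7 CPM (1159 counts). All full libraries lay above early and intermediate, and all BEC libraries above full. The ratio of full to intermediate was 103, with a 95% counting interval from 18.2 to 4106, and that test passed (adjusted p = 1.12e-05, edgeR). BEC against full was 3.18 (SE 0.31, adjusted p = 6.74e-06), 9.04-fold.

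S100a16, a widely expressed S100 protein with a low affinity for calcium, had a higher mean in each group than in the one before, and the differences after intermediate were called. Early libraries had 33.9, 30.4 and 33.6 CPM, intermediate 35.0, 38.0 and 38.4, full 45.8, 47.7 and 46.8, and BEC 61.9, 66.1 and 70.6 CPM. No library of a group overlapped with the next group. The first step, 0.19, did not pass (95% interval -0.00 to 0.37, adjusted p = 0.0877, edgeR), and with total counts it was 0.85 and called. The second was 0.33 (SE 0.08, adjusted p = 0.00648) and the third 0.50 (SE 0.08, adjusted p = 0.000636).

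S100a11, the partner of Anxa1, rose at the first step, stood still at the second and was higher in BEC than in full. Early libraries had 142, 123 and 110 CPM, intermediate 206, 202 and 196, full 210, 195 and 198, and BEC 357, 277 and 269 CPM. Intermediate and full overlapped, early lay below and BEC above them in every library. The first step was 0.69 (SE 0.12, adjusted p = 0.000246, edgeR) and BEC against full 0.58 (SE 0.12, adjusted p = 0.00260). The second step was 0.00 (95% interval -0.26 to 0.25, adjusted p = 0.981). Its close copies Gm12854 (99.0% identity over 297 bases) and Gm7665 (98.7%) held 237 and 200 counts in all libraries, against 48017 for S100a11, so little was assigned to them.

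S100a6, or calcyclin, which binds Cacybp and several annexins, rose at the first step and was higher in BEC than in full. Early libraries had 47.9, 48.5 and 33.9 CPM, intermediate 159, 148 and 112, full 114, 106 and 98.4, and BEC 156, 205 and 197 CPM. Early lay below every other library, while intermediate overlapped with both full and BEC. The first step was 1.69 (SE 0.16, adjusted p = 1.30e-06, edgeR), 3.22-fold. The second was -0.40 (SE 0.16, adjusted p = 0.0571), and 0.0283 with the replicate number as a block. It was also called without early replicate 3 (adjusted p = 0.0316), intermediate replicate 3 (0.0154) or BEC replicate 1 (0.0449), with no filter on low counts (0.0184) and in a fit of the 6 libraries (0.0329). BEC stood 0.81 above full (SE 0.16, adjusted p = 0.00182, edgeR), 1.76-fold.

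S100a10, or p11, was the 1 gene of the 10 that was highest in early with TMM. Early libraries had 223, 208 and 188 CPM, intermediate 132, 169 and 131, full 112, 111 and 114, and BEC 98.8, 115 and 104 CPM. Early lay above all other libraries, intermediate above full and BEC, and full and BEC overlapped. The first step was -0.52 (SE 0.11, adjusted p = 0.00115, edgeR), but with total counts it was 0.15 and did not pass (adjusted p = 0.246). On that scale the group means were 136, 151, 135 and 127 CPM from early to BEC. The second step was -0.36 (SE 0.11, adjusted p = 0.0182), and did not pass with total counts (-0.16, adjusted p = 0.262), without intermediate replicate 2 (-0.23, 0.107) or without full replicate 2 (-0.35, 0.0581). The last was -0.08 (95% interval -0.32 to 0.15, adjusted p = 0.680). The mitochondrial share of counts was 5.45% to 11.4% in early and 3.99% to 4.75% in intermediate. It was 2.20% to 2.48% in full and 2.58% to 3.43% in BEC. Of 9 tested stellate cell and fibroblast markers 8 were lower in full than in early with TMM (summed 113 to 330 CPM in early and 49.4 to 85.7 CPM in full). So were 4 of 7 endothelial ones (14.2 to 27.2 and 2.55 to 5.34 CPM), beside 32.1% of all genes. With total counts 0 of either list were called at the first step and 1 of each, lower, at the second. On that scale 69.4% and 44.5% of all genes were called. The part of the mitochondrial share and of these cell types in the S100a10 difference was not tested.

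The ratio of S100a10 to Anxa2 counts within a library needs no scaling between libraries. Its log2 value was -0.96, -0.64 and -0.76 in early, -2.12, -1.87 and -1.97 in intermediate, -2.12, -2.01 and -1.91 in full, and -2.29, -2.22 and -2.15 in BEC. In linear terms an early library held 0.580 S100a10 counts per Anxa2 count on average, and the intermediate, full and BEC groups held 0.252, 0.247 and 0.214. All early libraries lay above all others, and all BEC libraries below all the rest. The difference at the first step was -1.20, with a 2-sided exact p of 0.1 by permutation, below which 3 against 3 libraries cannot go, and 0.15 adjusted over 6 tests. At the second step it was -0.03 (exact p = 0.8) and at the third -0.21 (exact p = 0.1, adjusted 0.15). The ratio of S100a11 to Anxa1 had log2 means of 7.16, 8.92, 5.55 and 2.55 from early to BEC, with exact p of 0.2, 0.1 and 0.1 at the steps.

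**Figure D3:**
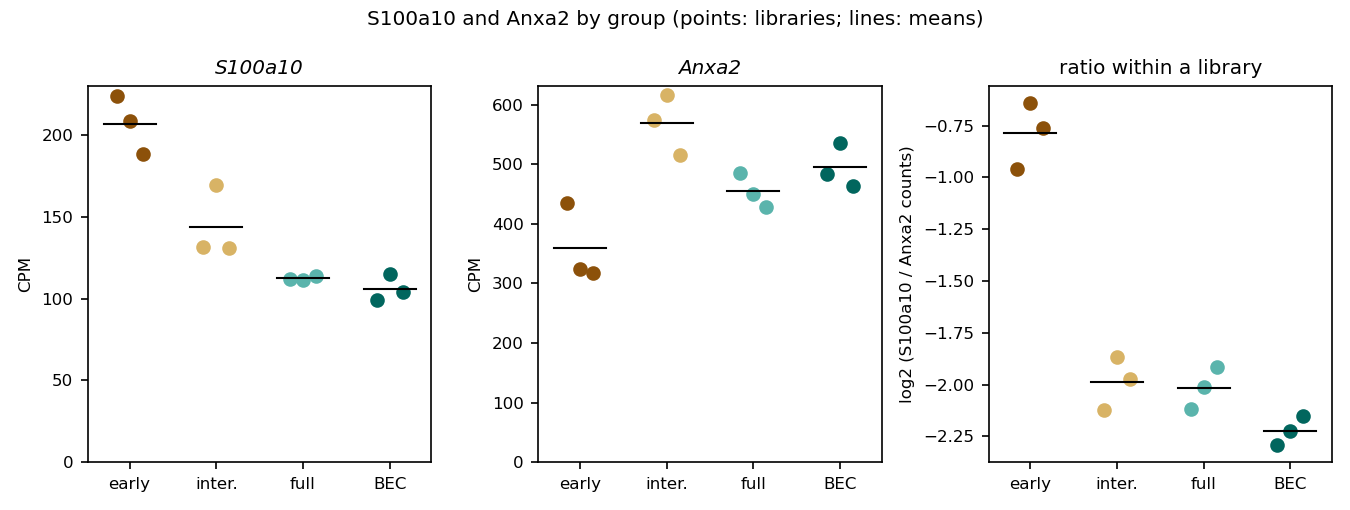
S100a10 and Anxa2 levels in CPM, and the log2 ratio of their counts within a library, by group; points are libraries and lines are means (n = 3). The ratio drops between early and intermediate, from a mean of -0.79 to -1.99. Its mean is -2.02 in full and -2.22 in BEC, whose libraries lie below all the rest.

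The change of a gene at the first step was set against its change at the second by a test of their difference, which was called for 7 of the 10, beside 16.4% of all genes (10.8% higher, 5.64% lower). For Anxa13, Anxa3, S100a6, Anxa5, Anxa2 and S100a11 the first step was larger (differences 6.12, 3.47, 2.08, 1.02, 0.98 and 0.69), and for Anxa1 the second was. The S100a11 difference had an adjusted p of 0.0326 and was lost without early replicate 2 or 3, any of the 3 intermediate libraries, or full replicate 2 or 3 (adjusted p 0.0517 to 0.0972), and with median-of-ratios size factors (0.0640). For S100a14 the difference was -6.66 (SE 3.10, adjusted p = 0.173), with 1 count in each of the groups of its first step.

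Each library was also placed between the mean of the early group (0%) and that of BEC (100%) in log2 CPM. Anxa13 and Anxa3 had covered 78.0% ± 4.24 and 70.0% ± 9.10 in intermediate and 99.1% ± 0.450 and 95.5% ± 0.914 in full (SD, n = 3). S100a11 had covered 55.1% ± 2.80 and 54.7% ± 4.68. Anxa5 overshot, at 133% ± 11.04 and 134% ± 14.6, as did Anxa2 in intermediate at 142% ± 27.5. Anxa1 stood at -15.8% ± 12.4 and 38.5% ± 9.80, S100a14 at -0.680% ± 5.36 and 55.6% ± 7.18, and S100a16 at 18.3% ± 7.30 and 51.0% ± 2.87. S100a6 had 80.1% ± 12.8 in intermediate and 61.8% ± 4.92 in full. S100a10, the 1 gene that fell, had 54.9% ± 21.9 and 91.0% ± 1.66, but on total counts, where BEC and early did not differ by the test, -146% and 9.49%. With total counts the intermediate values of Anxa5, Anxa2 and S100a16 were 103%, 99.8% and 45.1%, so the overshoot of Anxa2 was not seen on that scale. These shares are a description with no test.

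**Figure D4:**
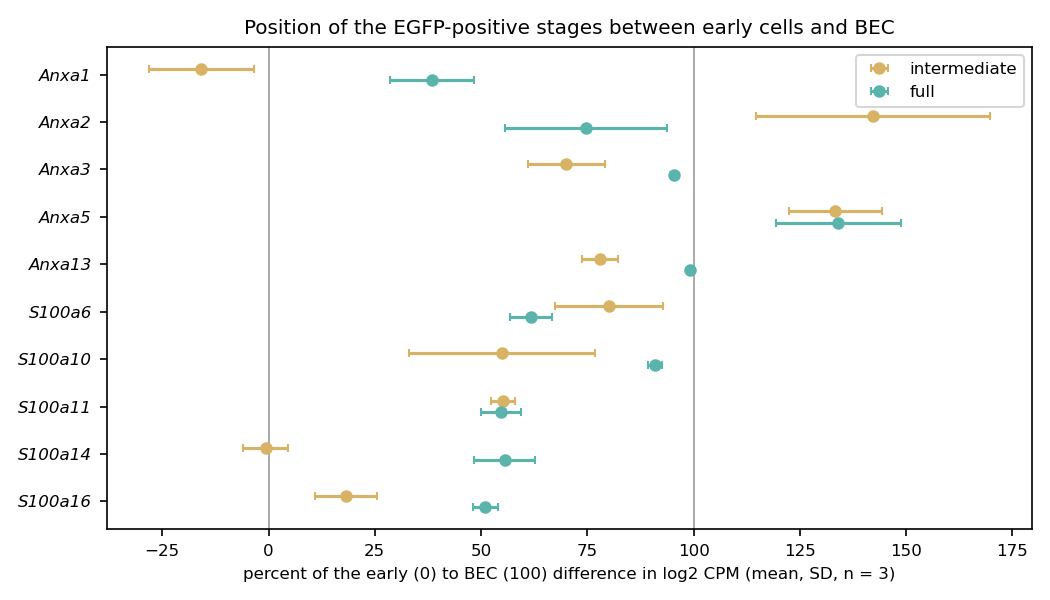
Share of the early to BEC difference in log2 CPM reached in intermediate and full, in percent, for each gene (points are means and bars SD, n = 3). Anxa3, Anxa13 and S100a10 lie at 91% or more in full, while Anxa1, S100a11, S100a14 and S100a16 lie between 38.5% and 55.6%.

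Per kilobase of exon in the GENCODE M21 annotation, the order in early was Anxa5 (442 CPM per kb), S100a11 (245), S100a10 (170), Anxa2 (96.3), S100a6 (31.8) and S100a16 (20.2). In BEC it was Anxa5 (753), S100a11 (589), S100a6 (136), Anxa2 (133), Anxa13 (95.3), S100a10 (87.5), Anxa3 (75.7), S100a16 (40.9), Anxa1 (17.7) and S100a14 (10.4). In BEC the libraries of S100a6 and Anxa2 overlapped on this scale, as did those of Anxa13 and S100a10, and no other neighbours in either order did. The lengths may not be those of the authors' annotation.

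Promoter sequences were read for the genes RefSeq lists on GRCm38.p6, while the counts were made on GRCm39; 6 of the 10 matched. They are shown for 3 members. These stand for a late rise (Anxa1), a first-step rise (Anxa2), and a first-step rise with a higher level in BEC than in full (S100a11). Each is 300 bases on the gene's strand, with 250 before the start and 50 after. Both strands were searched for the AP-1 motif TGANTCA. They were also searched for the TEAD motif, which reads GGAATG. The last was the TATA box, taken as TATAAA. Capitals mark the matches, which do not overlap. Anxa1 lies on the reverse strand at chr19:20390622-20390921, Anxa2 on the forward strand at chr9:69453433-69453732, and S100a11 on the forward strand at chr3:93520246-93520545.
Anxa1: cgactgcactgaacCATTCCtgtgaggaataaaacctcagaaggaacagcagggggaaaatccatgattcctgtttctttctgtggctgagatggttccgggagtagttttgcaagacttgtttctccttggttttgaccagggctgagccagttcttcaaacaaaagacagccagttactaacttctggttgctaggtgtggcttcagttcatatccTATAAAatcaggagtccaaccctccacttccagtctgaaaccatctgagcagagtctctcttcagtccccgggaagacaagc
Anxa2: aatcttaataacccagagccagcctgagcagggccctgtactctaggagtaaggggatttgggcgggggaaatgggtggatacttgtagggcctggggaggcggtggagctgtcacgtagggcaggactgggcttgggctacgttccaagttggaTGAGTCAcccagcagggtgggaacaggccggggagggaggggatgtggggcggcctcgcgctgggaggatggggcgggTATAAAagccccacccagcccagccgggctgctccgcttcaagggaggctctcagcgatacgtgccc
S100a11: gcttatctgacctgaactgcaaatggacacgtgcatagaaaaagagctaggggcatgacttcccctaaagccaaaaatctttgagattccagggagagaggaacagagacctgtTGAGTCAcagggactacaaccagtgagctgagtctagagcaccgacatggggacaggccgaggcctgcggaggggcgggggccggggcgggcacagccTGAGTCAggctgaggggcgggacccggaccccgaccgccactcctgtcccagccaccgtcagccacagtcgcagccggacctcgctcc
The Anxa1 window holds a TEAD match at -236 (its reverse complement) and a TATA match at -32 from the start. Anxa2 has an AP-1 match at -95 and a TATA match at -17, and S100a11 has AP-1 matches at -136 and -38. Of the other windows, not shown, the second of S100a16 has an AP-1 match at -192, and those of Anxa5 and S100a6 and the first of S100a16 hold none of these motifs. AP-1 letters occur in 7.81% of all 32851 RefSeq promoters of this length, TEAD letters in 14.7% and TATA letters in 13.6%. The C/EBP palindrome TTGCGCAA, in 0.183% of promoters, and an NF-kB motif, in 0.155%, were searched too and matched in none of the 7 windows of the 6 genes. A match is a description of the letters only.

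Other family members did not follow one course. Of the 7 other annexins, 6 were called at the first step (2 higher, 4 lower), 6 at the second (4 higher, 2 lower) and 5 at the third (4 higher, 1 lower), beside 54.4%, 40.7% and 21.3% of all genes. With total counts the split was 4 higher and 0 lower at the first step, 4 and 1 at the second and 4 and 1 at the third. On that scale 69.4%, 44.5% and 21.3% of all genes were called. Anxa9, lower with TMM (-0.96), was not called at the first step with total counts (-0.30, adjusted p = 0.233). Anxa4 rose by 1.06 at the first step and stood 0.42 higher in BEC than in full. Anxa8 had 2 counts in intermediate and 75 in full, a ratio of 28.2 (95% counting interval 7.55 to 238), and was 3.38 higher in BEC than in full. Anxa7 was lower in intermediate than in early (-0.59) with TMM but not with total counts (0.08), and lower again in full (-0.55). Anxa6, Anxa10 and Anxa11 passed at the first step with adjusted p of 0.0405, 0.0424 and 0.0399, and without early replicate 1 none of the 3 did (0.100, 0.0862 and 0.149); the directions of Anxa6 and Anxa11 were lower with TMM and higher with total counts. Of the 12 other S100 genes 5 had enough counts to be tested, 4 of them called at each of the first 2 steps (1 higher and 3 lower at both) and 1 at the last, beside the same shares of all genes. With total counts 1 was higher and 0 lower at the first step, and 1 higher and 2 lower at the second. On that scale 69.4% and 44.5% of all genes were called. S100b, known from glia, rose by 3.54 at the first step, while S100a1 fell by 0.86 (-0.19, not called, with total counts) and by 0.52 at the second. S100g, a vitamin D-regulated calcium binder, fell by 4.31 at the second. S100a8 and S100a9, the neutrophil calprotectin pair, were not tested for want of counts.

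Among 10 partners and plasmin-system genes, 8 were tested; 5 were called at the first step (4 higher, 1 lower), 6 at the second (4 higher, 2 lower) and 3 at the third (1 higher, 2 lower), beside 54.4%, 40.7% and 21.3% of all genes. With total counts 6 were higher and 1 lower at the first step, and the splits after it were 4 and 2, and 1 and 2. On that scale 69.4%, 44.5% and 21.3% of all genes were called. Plg, the plasminogen that the Anxa2 tetramer binds, fell by 2.04 and then by 3.58. Its activators moved the other way: Plat rose by 3.51 and 1.13, and Plau rose by 3.99 at the second step and was 2.14 higher in BEC than in full. Plaur, the urokinase receptor, rose by 2.44 and 0.79. Ahnak, a scaffold for S100a10 and Anxa2, rose by 1.02 at the first step. Ager, a receptor for S100 proteins, rose by 2.03 and 1.21 and was lower in BEC than in full (-1.30). Fpr1 and Fpr2 were not tested. Of 15 membrane-repair and penta-EF-hand genes, 14 were tested and 10, 7 and 2 were called at the steps (7, 4 and 1 higher). These are 71.4%, 50% and 14.3% of those tested, beside 54.4%, 40.7% and 21.3% of all genes. With total counts 11 and 8 were higher and 0 lower at the first 2 steps, beside 69.4% and 44.5% of all genes called on that scale. Myof and Dysf, ferlins that reseal membranes with annexins, rose by 3.58 and 2.87 at the first step, and Dysf was 2.64 lower in BEC than in full (-2.64). Ehd2 rose by 2.74 and 1.28, while Ehd1 fell by 0.75 at the first step with TMM (-0.08, not called, with total counts).

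For each member, the genes outside the 10 with the most similar log2 CPM over the 12 libraries were taken from 9955 candidates with a mean of at least 10 CPM, as a description across libraries that share their group differences. Anxa1 ran with Gsn (r = 0.990) and Msln (0.984). Anxa2 ran with Vwa5a (0.971), and its next best was weaker (Slc39a13, 0.920). Anxa3 ran with Gramd4 (0.998) and Clic1 (0.998), and Anxa13 with Cdh6 (0.999) and Thsd4 (0.998). Anxa5 ran with Tubb2b (0.992) and Tcaf1 (0.989). S100a6 ran with Dio3os (0.981) and Polk (0.970), and S100a10 with Mrpl55 (0.987) and Clpp (0.984). S100a11 ran with Rasa2 (0.984) and Ap2b1 (0.970), S100a14 with Fuca2 (0.996) and Dmbt1 (0.995), and S100a16 with Vangl1 (0.987) and Klhdc7a (0.987). In RefSeq order on chromosome 3, S100a14 and S100a16 are neighbours, as are S100a11 and S100a10, and neighbours differed in course. In early and intermediate S100a14 had 1 count each while S100a16 had group means of 32.6 and 37.1 CPM. S100a11 rose at the first step, where S100a10 fell with TMM and did not pass with total counts.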

How the data were processed

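Members and gene lists were chosen with earlier results of these data known. The authors deposited raw counts per gene symbol for 12 libraries, 3 per group, and made them with STAR 2.7.10b and featureCounts 2.0.1 on GRCm39, per the submitters' processing notes. The annotation, the strandedness and the handling of reads that match several genes are not given in the sources used here, so copies and antisense partners are uncertain. A normalized table was not used. The table held 53599 genes, and 0 rows lacked a gene name. Groups came from the sample titles and sort labels. In R 4.3.3, edgeR 4.0.16 (limma 3.58.1) fitted all 12 libraries at once with TMM factors, after filterByExpr kept 16210 genes. Calls used an adjusted p under 0.05, and log2 CPM a prior count of 2. The common biological coefficient of variation was 14.8%. Replicates differed beyond counting error, with chi-square per degree of freedom from 5.34 to 58.2. Libraries with the same number deviated together from their group means, with r of 0.121 to 0.293, 0.137 to 0.322 and 0.170 to 0.257 at the 3 steps, so the numbers were taken to pair the libraries there. In the other comparisons a pair had r under 0.1. That cut was not set against libraries with unlike numbers. The main fit and the exact tests did not use the pairing, and the replicate block did. Alternatives were DESeq2 1.42.0, other scaling, filters, a replicate block, 6-library fits, a minimum 2-fold change and leaving out each library. Named genes were the 10 members, the lists given and the 2 most alike genes of each member; 1 listed gene is not reported here. Gene copies were searched with BLAST 2.17.0 and figures drawn with matplotlib 3.10.9 under Python 3.11.15. The procedure was tested on simulated counts.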

Additional observations from a re-analysis of the deposited data

How the results depend on the processing

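Leaving out each library gave 7 called members at the first step, 5 to 8 at the second and 5 at the third. It gave 9 to 10 in full against early, 10 between BEC and early, 7 to 9 between BEC and intermediate, and 6 to 7 for the difference of the first 2 steps. Requiring a minimum 2-fold change left 3, 2, 5, 6 and 4 members called in intermediate against early, BEC against full, full against early, BEC against early and BEC against intermediate. In full against intermediate S100a10 and S100a16 lost their calls under that setting. The shares of all genes called under these settings are not given here, so the counts show only how stable the members' calls were.

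With the replicate block, 7, 8 and 6 members were called at the 3 steps, the gains being Anxa2 and S100a6 (full against intermediate) and Anxa5 (BEC against full). The block changed no other member's call. The share of all genes called with it is not given here.

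Some signs turned with total counts. For intermediate against early these were S100a10 (0.15), S100a14 (0.10), Anxa6 (0.46), Anxa7 (0.0808) and Anxa11 (0.39). For BEC against intermediate it was Anxa2 (0.000942), for the first step minus the second S100a10 (0.30) and S100a16 (0.32), and for S100a10, percent of the early to BEC difference reached in intermediate, the value was -146%. S100a11, full against intermediate, called under none of these settings, was 0.0348 with median-of-ratios size factors and with DESeq2, 0.196 with total counts, 0.00565 with no filter, 0.0206 with a mean of at least 50 counts and 0.00205 with 6 libraries. With single libraries left out, S100a14, intermediate against early, ran from -2.36 to 1.98, Anxa5, full against intermediate, from -0.0399 to 0.0669, S100a11, full against intermediate, from -0.0389 to 0.0195, and the log2 ratio of S100a10 to Anxa2, full against intermediate, from -0.0959 to 0.0338. Causes were not tested beyond the scaling shift.

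With 3 libraries a group, exact tests cannot go below 0.1, and libraries at or under 3 counts (Anxa13 in early, S100a14 in early and intermediate, Anxa1 in intermediate replicate 1) give folds with wide counting error.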
